A study of Homo sapiens with 6 samples.

Results

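The 10 genes described here are BUB1, BUB1B, BUB3, MAD2L1 and TTK of the spindle assembly checkpoint, the kinase genes AURKA and AURKB, and INCENP, BIRC5 and CDCA8, whose products bind Aurora B. Each was taken as the row of the deposited count table that carries its symbol, and all 10 were found, 1 row each, among 26699 genes. All 10 passed the filter on low counts. They were chosen by name with their log2 fold changes and calls between the same groups in view, so their values are a description, without p-values, and their calls support nothing by themselves. RNA came from OVCA433 cells, a line grown from a human ovarian cancer. It was sequenced in 6 libraries, 3 labelled sinc and 3 labelled si. Neither name is explained, the reagent is not described, and the title of the series refers to SOGA1 deficiency. Separate cultures are not mentioned for the replicates, and the p-values given for other genes rest on a spread between libraries that may be technical.

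The spindle checkpoint delays the separation of sister chromatids until every kinetochore is held by microtubules. TTK (also called MPS1) starts the signal, BUB1 and BUB3 dock at the kinetochore, and MAD2L1 and BUB1B (BubR1) with BUB3 hold CDC20, the activator of the anaphase-promoting complex. Aurora A, from AURKA, works at centrosomes and spindle poles. Aurora B, from AURKB, forms the chromosomal passenger complex with the scaffold INCENP, survivin from BIRC5 and borealin from CDCA8, and it releases faulty attachments so that the checkpoint can act. Transcripts of many of these genes are known to build up in G2 and mitosis in dividing cells.

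RefSeq promoter sequences (GRCh38.p14, 250 bases before to 50 after the start of transcription) were at hand for 6 of the genes: BUB1, BUB1B, MAD2L1, AURKB, INCENP and CDCA8. They were searched on both strands for TTTGAA and TTCGAA, the letters of the cell cycle homology region that many mitotic genes carry, and for CCAAT, the box bound by NF-Y. One of TTTGAA and TTCGAA was found in 5 of the 6 genes, against 19.5% of the 27305 genes in the promoter table, and CCAAT in 5 of the 6, against 39.7%. Both kinds together stood in 4 of the 6, against 7.8%. AURKB, with 2 listed promoters, held CCAAT alone, and BUB1B held TTTGAA without CCAAT. The 5 elements are shown with 12 bases on each side because they lie close to the start: the first letter is at position -23 in BUB1B and CDCA8, -10 in INCENP, 2 in BUB1 and 25 in MAD2L1, where 1 is the first transcribed base. In CDCA8 a reverse CCAAT match at -18 shares its first base with TTTGAA, and others lie at -75 and -115. Each is written 5′ to 3′ on the strand of its gene, with the element in capitals. In the same order as the lines that follow, they lie at chr2:110678045-110678074 (minus strand), chr15:40161034-40161063 (plus), chr4:120066807-120066836 (minus), chr11:62123989-62124018 (plus) and chr1:37692481-37692510 (plus).
BUB1: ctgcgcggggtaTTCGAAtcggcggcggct
BUB1B: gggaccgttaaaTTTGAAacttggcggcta
MAD2L1: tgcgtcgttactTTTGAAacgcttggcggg
INCENP: tgagccttcagtTTTGAAaatcatagtttt
CDCA8: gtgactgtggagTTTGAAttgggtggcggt
The element sits in promoters of genes that were lower in si and in that of MAD2L1, whose groups overlapped. A match of letters is a description and no measurement of binding.

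Total counts lay between 33778707 (si replicate 3) and 44130601 (sinc replicate 2). Levels are CPM, counts relative to a library size scaled by TMM. Changes are log2 fold changes, si minus sinc, estimated by edgeR, with two-sided quasi-likelihood tests of the 15562 genes that passed the filter. A gene is called when its p, adjusted by Benjamini-Hochberg over all of them, is under 0.05. SOGA1 stood at 64.4, 59.7 and 63.9 CPM in sinc replicates 1, 2 and 3 and at 25.3, 27.2 and 20.2 CPM in si replicates 1, 2 and 3, a log2 fold change of -1.37 (SE 0.11, adjusted p = 0.000963). Of the ovarian epithelial markers, KRT7 and KRT8 were abundant, with means of 2298 and 2208 CPM in sinc and 2481 and 2434 CPM in si, while EPCAM was at 1.22 and 1.93 CPM. Of the same list, CDH1 and MUC16 had no row, and WT1, with 6 counts in sinc replicate 1 and 0 elsewhere, was not tested. Of the 6 epithelial markers tested, edgeR called 0 in either direction, and DESeq2 and limma-voom called 0. At an unadjusted p under 0.05 edgeR had 0 lower and 2 higher, beside 29.1% of all genes tested in either direction. The 10 stromal, immune and endothelial markers with a row summed to between 138 and 141 CPM in sinc and between 155 and 176 CPM in si, none was at 0 in all libraries, 4 had under 10 counts in every library, and most of the sum was COL1A1, which rose by 0.34 (SE 0.06, adjusted p = 0.0172). The call of COL1A1 was lost under the replicate block and without any 1 of the sinc libraries or si replicate 1. Of the 6 markers of this list that were tested, edgeR called 0 lower and 1 higher, with a median change of -0.036. CDH5 was lower without overlap but not called (-0.48, SE 0.16, adjusted p = 0.0932). With overlap, LUM and VWF had negative changes and PDGFRB and CD68 positive ones. The part of these markers in the values that follow was not tested. In bulk RNA, fewer mitotic cells and less RNA per cell cannot be told apart.

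Of the 10 genes, 6 were called lower in si and 0 higher, beside 6.00% lower and 4.14% higher among all genes tested, 10.1% in all. The contrast was known when the genes were proposed, so nothing is read from that count. At an unadjusted p under 0.05 edgeR had 7 lower and 0 higher, beside 29.1% of all genes tested in either direction. That share also stands beside the unadjusted counts of the lists that follow. DESeq2 called 6 and 0, beside 1622 lower and 1304 higher among all genes. With limma-voom it was 5 and 0, beside 1033 lower and 677 higher. The CPM values of the groups did not overlap for 8 of the 10, all lower in si, beside 16.8% of genes tested, and 18.1% were apart and higher. The median change was -0.39, against 0.0058 over all genes tested. INCENP, BUB1 and AURKA had the largest changes among the called genes, TTK had a larger one with a wide error, and MAD2L1 and BIRC5 overlapped between the groups.

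**Figure D1:**
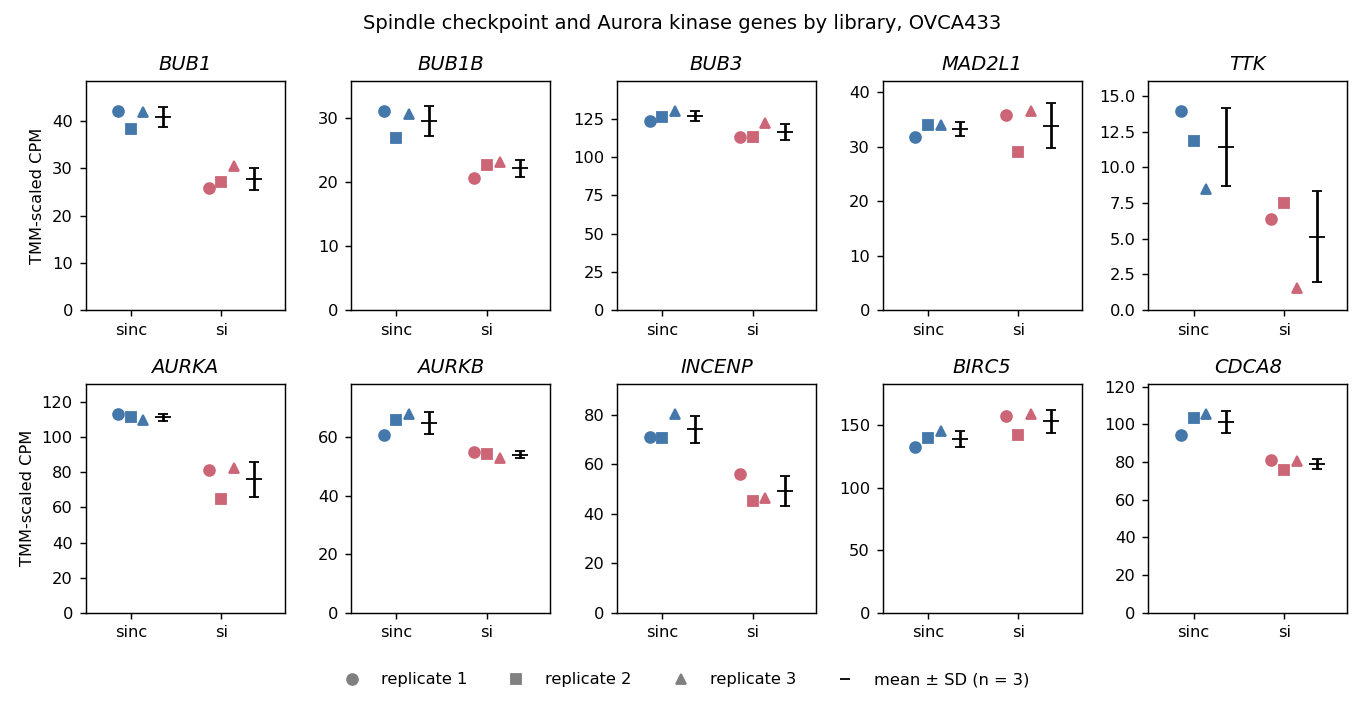
TMM-scaled CPM of each of the 10 genes (vertical axes from 0) in the 3 sinc libraries (blue) and the 3 si libraries (red), with symbols for replicate numbers and bars for the mean ± SD (n = 3). For 8 genes every si library lies under every sinc library, and MAD2L1 and BIRC5 overlap.

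Among the checkpoint kinases, TTK (ENSG00000112742; chromosome 6, 80003887 to 80042527, plus strand; this and the other gene positions are from GENCODE 29 on GRCh38) was the least abundant and the least even. It stood at 13.97, 11.9 and 8.51 CPM in sinc replicates 1, 2 and 3 and at 6.36, 7.55 and 1.56 CPM in si replicates 1, 2 and 3. The groups did not overlap, but si replicate 3, with 53 counts against 222 and 302 in the other si libraries, was far lower than the rest. The log2 fold change was -1.15 (SE 0.49), not called, and without si replicate 3 it was -0.73 (SE 0.23), also not called.

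BUB1 (ENSG00000169679; chromosome 2, 110637698 to 110678114, minus strand) stood at 42.2, 38.4 and 42.0 CPM in sinc replicates 1, 2 and 3 and at 25.8, 27.1 and 30.5 CPM in si replicates 1, 2 and 3. All 3 si libraries were lower, and the si mean of 27.8 ± 2.39 CPM was 68.0% of the sinc mean of 40.9 ± 2.16 CPM (SD, n = 3 each). The change was -0.56 (SE 0.09) and was called. Its paralog BUB1B (ENSG00000156970; chromosome 15, 40161023 to 40221136, plus strand) stood at 31.1, 26.9 and 30.6 CPM in sinc replicates 1, 2 and 3 and at 20.7, 22.6 and 23.1 CPM in si replicates 1, 2 and 3. It fell by 0.41 (SE 0.09) and was called, with groups that did not overlap. That call was lost with no filter and under the replicate block. On its strand BUB1B overlaps the read-through gene BUB1B-PAK6, which was not analysed here. BUB1 gave 1.39 ± 0.0370 counts per count of BUB1B in sinc and 1.25 ± 0.0593 in si (SD, n = 3 each), without overlap.

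The adaptor and the inhibitor that BUB1 and BUB1B work with moved less. BUB3 (ENSG00000154473; chromosome 10, 123154277 to 123170467, plus strand), a WD-repeat protein that carries both, stood at 124, 126 and 130 CPM in sinc replicates 1, 2 and 3 and at 113, 113 and 122 CPM in si replicates 1, 2 and 3. Every si value was under every sinc value, by little, and the change of -0.13 (SE 0.06) was not called. MAD2L1 (ENSG00000164109; chromosome 4, 120055608 to 120067074, minus strand), the inhibitor that closes on CDC20, stood at 31.7, 33.9 and 34.0 CPM in sinc replicates 1, 2 and 3 and at 35.8, 29.03 and 36.5 CPM in si replicates 1, 2 and 3. In si replicate 2 it was below all sinc libraries and in the other si libraries above them, and its change was 0.03 (SE 0.10). The ratio of BUB1 to BUB3 in CPM was 0.322 ± 0.0187 in sinc and 0.239 ± 0.0105 in si (SD, n = 3 each). That of MAD2L1 to BUB3 was 0.262 ± 0.00629 and 0.291 ± 0.0305, and it overlapped between the groups.

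AURKA (ENSG00000087586; chromosome 20, 56369389 to 56392337, minus strand) stood at 113, 111 and 110 CPM in sinc replicates 1, 2 and 3 and at 81.4, 64.7 and 82.3 CPM in si replicates 1, 2 and 3. The sinc libraries lay close together and si replicate 2 was the lowest of all 6. AURKA fell by 0.55 (SE 0.10), to 68.3% of the sinc mean, and was called. AURKB (ENSG00000178999; chromosome 17, 8204733 to 8210600, minus strand) stood at 60.7, 66.1 and 68.2 CPM in sinc replicates 1, 2 and 3 and at 55.1, 54.3 and 52.9 CPM in si replicates 1, 2 and 3. It fell by 0.26 (SE 0.07), to 83.2% of the sinc mean, and was called narrowly: RLE scaling, upper-quartile scaling, limma-voom, the fit with no filter, the replicate block and all 6 fits that left out a library gave no call. The ratio of AURKA to AURKB in CPM was 1.72 ± 0.135 in sinc and 1.41 ± 0.193 in si (SD, n = 3 each).

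The partners of Aurora B did not move alike. INCENP (ENSG00000149503; chromosome 11, 62123973 to 62153163, plus strand), the scaffold that binds and activates the kinase, stood at 71.0, 70.7 and 80.4 CPM in sinc replicates 1, 2 and 3 and at 55.9, 45.1 and 46.4 CPM in si replicates 1, 2 and 3. It fell by 0.59 (SE 0.10) and was called, with an si mean at 66.4% of the sinc mean. CDCA8 (ENSG00000134690; chromosome 1, 37692418 to 37709719, plus strand), which links the complex to the centromere, stood at 94.5, 103 and 106 CPM in sinc replicates 1, 2 and 3 and at 81.0, 75.8 and 80.4 CPM in si replicates 1, 2 and 3. It fell by 0.36 (SE 0.07) and was called, again without overlap, but not under the replicate block. BIRC5 (ENSG00000089685; chromosome 17, 78214186 to 78225636, plus strand), which reads the histone mark that recruits the complex and also belongs to the inhibitor of apoptosis family, stood at 133, 140 and 145 CPM in sinc replicates 1, 2 and 3 and at 158, 143 and 160 CPM in si replicates 1, 2 and 3. Here si was on average the higher group, the groups overlapped at si replicate 2 and sinc replicate 3, and the change of 0.14 (SE 0.07) was not called.

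Ratios within a library do not depend on scaling. INCENP to BIRC5 in CPM had the values 0.534, 0.506 and 0.553 for sinc replicates 1, 2 and 3, and 0.355, 0.316 and 0.291 for si replicates 1, 2 and 3. CDCA8 to BIRC5 was 0.727 ± 0.0150 in sinc and 0.517 ± 0.0142 in si, and AURKB to BIRC5 was 0.466 ± 0.00853 and 0.354 ± 0.0251 (SD, n = 3 each). None of these 3 ratios overlapped between the groups, so survivin mRNA made up more of the summed CPM of the 4 passenger genes in each si library than in any sinc library.

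Levels of different genes can be set side by side only per length. With the length of the GENCODE 29 transcript that has the longest coding sequence, the sinc order in CPM per kilobase was AURKB (51.8), BIRC5 (51.4), AURKA (49.5), CDCA8 (41.0), INCENP (18.7), BUB3 (16.2), BUB1 (11.7), BUB1B (8.14), MAD2L1 (6.07) and TTK (3.80). AURKB, BIRC5 and AURKA overlapped in that order, and every other neighbouring pair was apart in the 3 sinc libraries. In si the order began with BIRC5 (56.5), AURKB (43.1), AURKA (33.9) and CDCA8 (32.0), of which AURKA and CDCA8 overlapped. BUB3 (14.8) passed INCENP (12.4), and MAD2L1 (6.18) and BUB1B (6.10) overlapped. The order depends on the transcript used, since that of BUB3 has a 3′ UTR of 6632 bases and that of MAD2L1 one of 4510. Per kilobase of coding sequence BIRC5 (281 CPM per kilobase) was the highest in sinc, BUB3 (129) and CDCA8 (121) came next and overlapped, and MAD2L1 (54.0) was above INCENP (26.9). TTK was the lowest on both scales and in both groups.

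**Figure D2:**
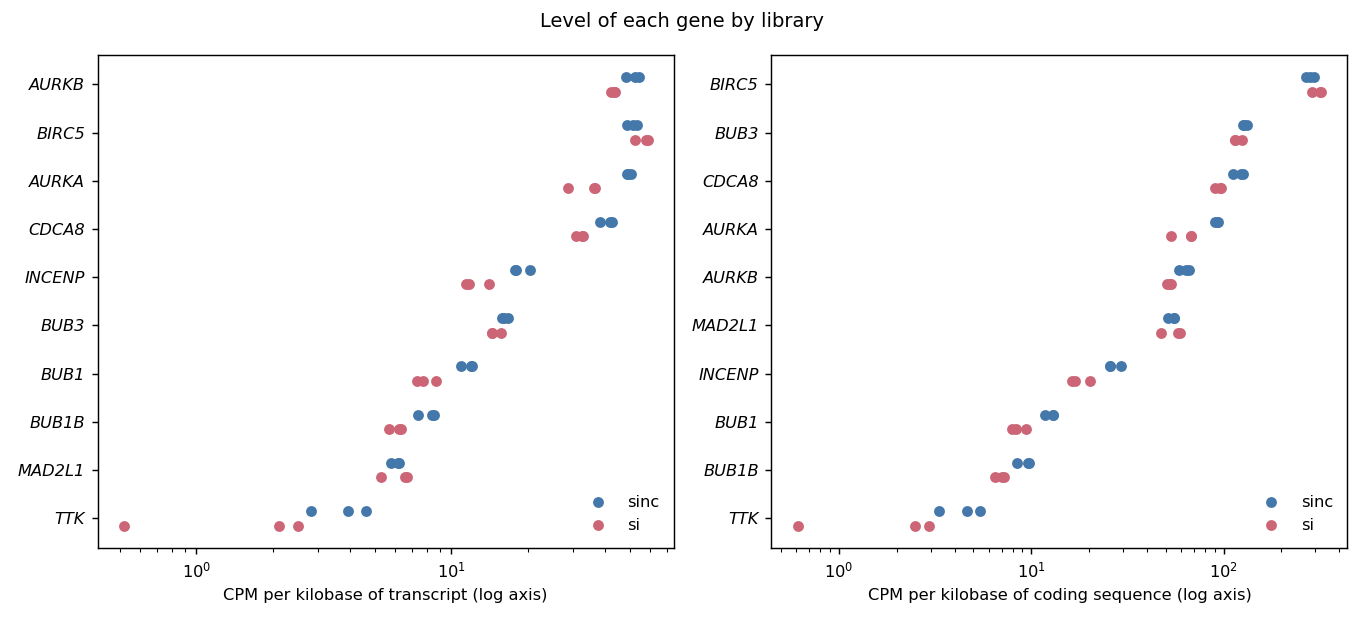
CPM per kilobase of transcript (left) and of coding sequence (right), on log axes, for each gene in the 3 sinc (blue) and 3 si (red) libraries, 1 point per library. TTK is the lowest gene on both scales, and BUB3 and MAD2L1 change place with the length used.

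Libraries of a group did not differ in 1 common direction. Among sinc libraries, replicate 3 was the highest for 6 of the 10 genes and replicate 1 the lowest for 5. Among si libraries, replicate 3 was the highest for 6 and replicate 2 the lowest for 6. The coefficient of variation was between 1.75% (AURKA) and 7.81% (BUB1B) in sinc and between 2.08% (AURKB) and 13.05% (AURKA) in si for every gene but TTK, which had 24.1% and 61.4%.

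The calls depended on single libraries while the changes did so less. Without sinc replicate 1 or sinc replicate 3 no gene of the 10 was called (0), without si replicate 1 only INCENP was (1), and without sinc replicate 2 BUB1 and INCENP were (2). Without si replicate 2 or without si replicate 3, 5 were called, all but AURKB of the original 6. Over the 6 fits, the change of INCENP lay between -0.70 and -0.53, that of BUB1 between -0.64 and -0.51, that of AURKA between -0.62 and -0.45, that of BUB1B between -0.48 and -0.37, that of CDCA8 between -0.41 and -0.33 and that of AURKB between -0.31 and -0.23. That of MAD2L1 lay between -0.04 and 0.12.

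Long transcripts and those poor in G and C differed between the groups across all genes. Among the 3187 genes with the longest transcripts (4789 bases or more), the median of log2 CPM centred per gene took the values 0.24, 0.09 and 0.11 for sinc replicates 1, 2 and 3, and -0.19, -0.02 and -0.22 for si replicates 1, 2 and 3. Among the 3188 with the lowest GC content (up to 42.7%), the sinc medians were 0.32, 0.10 and 0.07 and the si medians -0.27, 0.01 and -0.21 in that order. The transcripts of TTK, BUB3 and MAD2L1 have 36.6%, 41.4% and 39.4% GC, BUB1 and BUB1B 42.9% and 43.4%, and INCENP, AURKB, BIRC5, CDCA8 and AURKA 59.6%, 55.6%, 52.2%, 51.4% and 46.6%. With each library corrected for transcript length and GC content, INCENP (-0.60, SE 0.09), AURKA (-0.50, SE 0.08), AURKB (-0.44, SE 0.07) and CDCA8 (-0.40, SE 0.06) were called. BUB1 (-0.32, SE 0.08) and BUB1B (-0.18, SE 0.08) were then not called, and BUB3 (0.35, SE 0.14), below 0 without the correction, and MAD2L1 (0.46, SE 0.20) stood above 0 without a call. The corrected values of BUB3 and MAD2L1 rest on the transcripts with long 3′ UTRs named above. Beyond these values, the part of length and GC content in the result was not tested.

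**Figure D3:**
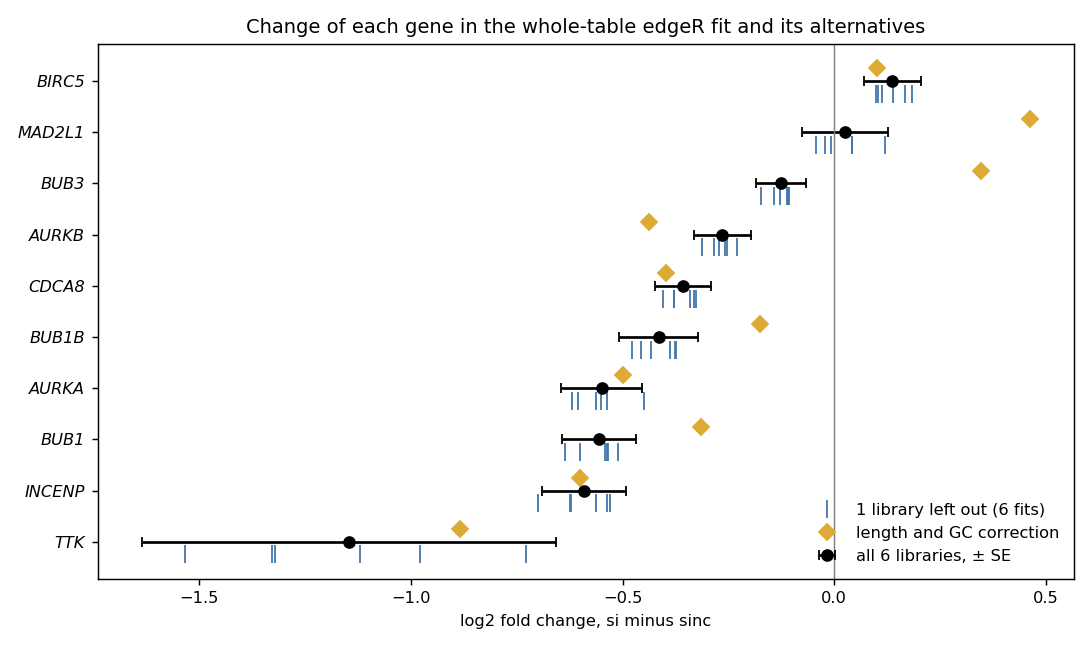
Log2 fold change, si minus sinc, of each gene (horizontal axis) in the fit on all 6 libraries (black, ± SE), in the 6 fits with 1 library left out (blue bars) and under the length and GC correction (yellow diamonds). TTK, INCENP, BUB1, AURKA, BUB1B, CDCA8 and AURKB lie below 0 in all of these, BUB3 lies above 0 only with the correction, and MAD2L1 lies on both sides of 0.

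A 7-base sequence, TGAAGTA, that an earlier search of these data had picked out in 3′ UTRs of lower genes was present in the 3′ UTR of 1 of the 10 genes, MAD2L1, against 11.4% of the 12749 tested genes for which a coding transcript was at hand. None of the 6 called genes held it in the transcript used. The 3′ UTRs of BUB1, BUB1B and AURKB have only 130, 279 and 138 bases. At a share of 11.4%, few or none of 6 genes would hold it, so nothing is read from that count.

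The genes that act with these 10 were tested in 4 lists. Together, 7 of 61 tested were lower, 1 was higher and 53 did not pass, with a median change of -0.15, beside 6.00% lower and 4.14% higher of all genes. With the replicate number as a block 1 was lower. Leaving out sinc replicate 1, sinc replicate 3 or si replicate 1 left 1 lower, leaving out sinc replicate 2 left 2, and leaving out si replicate 2 gave 13. Over all genes, 1782 were lower without si replicate 2, against 934 in the main fit. With the length and GC correction 3 of the partner genes were lower.

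Of 12 other genes of the checkpoint relay, 0 were called in either direction by edgeR, with 3 lower and 1 higher at an unadjusted p under 0.05, 2 lower and 1 higher by DESeq2 and 1 lower and 0 higher by limma-voom. CDC20, the target of the checkpoint, averaged 348 ± 12.9 CPM in sinc libraries against 314 ± 12.98 CPM in si libraries (SD, n = 3 each), a log2 fold change of -0.15 (adjusted p = 0.14 by edgeR). With the length and GC correction CDC20 was called lower, at -0.30 (SE 0.05, adjusted p = 0.0207), and in the other 15 alternatives it was not called. The mitotic kinase gene PLK1 was at 177 ± 6.31 and 171 ± 2.80 CPM (SD, n = 3 each), a difference of -0.05 in log2 (adjusted p = 0.60 by edgeR), and of -0.17 with the correction, also not called.

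Of 23 genes of the anaphase-promoting complex, its enzymes and its targets, 3 fell and 0 rose by edgeR, with a median of 0.0010. At an unadjusted p under 0.05, 8 were lower and 3 higher, and by DESeq2 and limma-voom 6 and 3 were lower and 0 higher. ANAPC1, the largest subunit, fell by 0.50 (SE 0.11, adjusted p = 0.0294), CDC27, a subunit that binds the activators, by 0.56 (SE 0.12, adjusted p = 0.0327), and ESPL1, the separase that cuts cohesin, by 0.32 (SE 0.06, adjusted p = 0.0205). With the length and GC correction none of these 3 was called, nor was any without sinc replicate 1, 2 or 3 or si replicate 1. CDC27 was not called without si replicate 3 either.

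Of 13 genes around Aurora A, 2 fell and 1 rose by edgeR, with 5 lower and 1 higher at an unadjusted p under 0.05, 3 and 1 by DESeq2, and 2 and 1 by limma-voom. CKAP5, a microtubule polymerase that works with TACC3 at spindle poles, stood at 118, 103 and 118 CPM in sinc replicates 1, 2 and 3 and at 57.4, 73.0 and 57.1 CPM in si replicates 1, 2 and 3. It fell by 0.86 (SE 0.11, adjusted p = 0.00637) and was called in all 16 alternatives, with -0.48 under the length and GC correction. TPX2, which activates Aurora A and brings it to the spindle, fell by 0.31 (SE 0.08, adjusted p = 0.0469), and AJUBA, a LIM protein that binds Aurora A, rose by 0.28 (SE 0.07, adjusted p = 0.0449). TPX2 was called in 7 and AJUBA in 8 of the 16 alternatives. Neither was called without sinc replicate 1, 2 or 3 or si replicate 1, TPX2 was also lost without si replicate 2 and with the length and GC correction (-0.16), and AJUBA without si replicate 3.

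Of 13 genes that place the passenger complex or act with Aurora B, 2 fell and 0 rose by edgeR, with 4 lower and 1 higher at an unadjusted p under 0.05, and 3 and 2 lower and 0 higher by DESeq2 and limma-voom. Both are kinesins of the central spindle. KIF20A, which carries the complex to the midzone, fell by 0.37 (SE 0.07, adjusted p = 0.0228), and KIF23, a part of centralspindlin, by 0.59 (SE 0.12, adjusted p = 0.0276). Neither kept its call when sinc replicate 1, sinc replicate 3 or si replicate 1 was left out, and KIF20A also lost it without sinc replicate 2. The replicate block ended both calls, and the length and GC correction that of KIF23 (-0.32, adjusted p = 0.114).

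**Figure D4:**
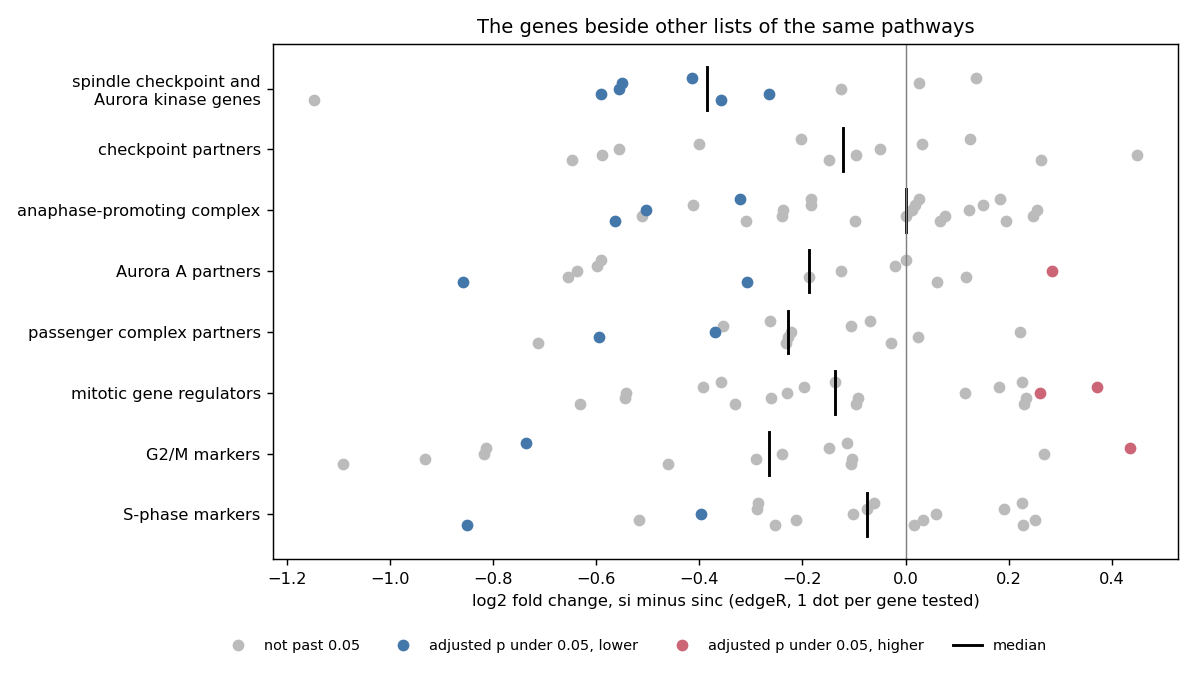
Log2 fold change, si minus sinc (horizontal axis), of every tested gene of 8 lists, 1 dot per gene, with called genes in blue (lower) or red (higher) and the median of each list as a black line. The medians lie between -0.39 for the spindle checkpoint and Aurora kinase genes, which were chosen with this contrast known, and 0.0010 for the anaphase-promoting complex.

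Of 19 genes listed as regulators of mitotic genes, most of them promoter factors but also CDKN1A, 0 fell and 2 rose by edgeR. At an unadjusted p under 0.05, 6 were lower and 4 higher, with 4 lower and 3 higher by DESeq2, and 1 and 1 by limma-voom. E2F1, an activator of genes for S phase, rose by 0.37 (SE 0.08, adjusted p = 0.0267), and its dimer partner gene TFDP1 by 0.26 (SE 0.07, adjusted p = 0.0469). Both calls were lost without sinc replicate 1 or 2 or si replicate 1 or 3, and that of TFDP1 also without sinc replicate 3. The replicate block ended both, and the length and GC correction that of E2F1 (0.24, adjusted p = 0.123). FOXM1, which activates genes of G2 and mitosis, averaged 363 ± 19.3 CPM in sinc libraries against 341 ± 24.6 CPM in si libraries (SD, n = 3 each, adjusted p = 0.45 by edgeR) and was looked at after its value was seen.

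Of 14 markers of G2 and mitosis, 1 fell and 1 rose by edgeR, with a median of -0.26. At an unadjusted p under 0.05, 7 were lower and 1 higher, and DESeq2 and limma-voom each called 2 lower and 1 higher. Without si replicate 2 edgeR called 6 lower and 1 higher. Calls rose over all genes in that fit, to 1782 lower and 781 higher, against 934 and 645 in the main fit. The groups were apart and lower for 7 of the 14 and apart and higher for 1, beside 16.8% and 18.1% of all genes tested. CENPF, CENPE, NUSAP1, CKS2, CDC25C and ASPM overlapped between the groups, and the change of CENPE was above 0 (0.27, SE 0.71). Among the 7 that were apart and lower, named after their values were seen, were MKI67, the gene of the proliferation antigen Ki-67 (-1.09, SE 0.33, adjusted p = 0.0754), and TOP2A, a DNA topoisomerase gene (-0.93, SE 0.28, adjusted p = 0.0727). Neither was called. DLGAP5, a spindle protein gene, fell by 0.74 (SE 0.17, adjusted p = 0.0357), and CKS1B, which encodes a small partner of cyclin-dependent kinases, rose by 0.44 (SE 0.05, adjusted p = 0.00583), the latter in all 16 alternatives. The call of DLGAP5 was lost without any 1 of the sinc libraries or si replicate 1, with no filter, under the replicate block and with the length and GC correction (-0.47, adjusted p = 0.0883). The summed level of the 14 was between 748 and 865 CPM in sinc and was 619, 784 and 626 CPM in si replicates 1, 2 and 3, so the overlap rested on si replicate 2 alone, and that of the 10 genes was between 715 and 754 CPM in sinc and between 582 and 635 CPM in si. The part of the share of dividing cells in the values of the 10 genes was not tested. Of 17 markers of S phase, 2 fell and 0 rose by edgeR, with 3 lower and 0 higher at an unadjusted p under 0.05, and 2 lower and 0 higher by DESeq2 and by limma-voom. PCNA, the sliding clamp of DNA replication, fell by 0.40 (SE 0.07, adjusted p = 0.0154), and CLSPN, a mediator of the replication checkpoint, by 0.85 (SE 0.15, adjusted p = 0.0165). Both were lost without any 1 of the sinc libraries, and PCNA also without si replicate 1.

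The genes closest to the mean profile of the 10 over the 6 libraries were found by the root mean square difference of centred log2 CPM, among genes with a mean of at least 5 CPM. They were HYOU1, a chaperone of the endoplasmic reticulum (0.024), ZNRF1, an E3 ubiquitin ligase (0.025), ABCG2, a drug efflux transporter (0.027), GON4L, a nuclear protein gene (0.029), and SLC38A7, a lysosomal amino acid transporter (0.030). Each of these was lowest in si replicate 3. So was the mean profile, at -0.30 there against -0.12 and -0.20 in si replicates 1 and 2. Of the 10 genes, however, 6 had their highest si value in replicate 3 and only 2, AURKB and TTK (53 counts), their lowest. In si replicate 2, 6 had their lowest. The low point of the mean profile in si replicate 3 was therefore not shared by most of the 10. Nor do the 5 closest genes follow most of them among the si libraries. A mean profile without TTK was not computed. For comparison, the single genes of the 10 lay between 0.082 (CDCA8) and 0.85 (TTK) from their own mean. The genes named above had the smallest distances in a search over all other genes at that level. Their smaller values follow from that search.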

How the data were processed

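Libraries were poly(A)-selected and kept strand by dUTP, per the labels' protocols. The authors deposited whole-number counts per gene for 6 libraries. CASAVA and StringTie are named in the submitters' processing notes; versions, aligner, build, annotation and use of strand in counting: not given in the sources used here. Columns were matched to samples by title. No molecular identifiers are described, so PCR copies count as reads. The SE values given here include the spread between libraries, and the SD values are that spread.

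Counts were fitted with edgeR 4.0.16 in R 4.3.3 (filterByExpr at a minimum count of 10, TMM, glmQLFit and glmQLFTest, group as the only term). SE was taken as the log2 fold change, unsigned, divided by the root of its F statistic. The common coefficient of biological variation was 18.8%. Library pairs of a group differed beyond sampling noise (chi-square per gene 14.0 to 61.0). Alternatives used DESeq2 1.42.0, limma-voom (limma 3.58.1), other scalings and filters, a block for the replicate number, single libraries left out, and offsets from splines (4 degrees of freedom) on length and GC content of 1 coding transcript per gene in GENCODE 29, available for 81.9% of genes tested.

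Members and lists were chosen with earlier results of these data known. Named genes are the 10 genes, SOGA1, up to 4 called genes of each list by adjusted p (or its 2 most abundant), and the 5 closest profiles. List genes without a row were not analysed here.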

Additional observations from a re-analysis of the deposited data

How the results depend on the processing

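The main counts were 934 genes lower and 645 higher, 6 of the 10 genes lower, and 7 of the partner genes lower and 1 higher. DESeq2 gave 1622, 1304, 6, 14 and 2. Upper-quartile scaling gave 890 lower and 1005 higher genes and 2 higher partner genes, total-count scaling 0 higher partner genes, and no filter 681 lower and 163 higher genes and 0 higher partner genes. Length and GC correction gave 341, 287, 4, 3 and 2, and the same genes without it 2 higher partner genes. With 1 library left out the counts ran from 172 to 1782 lower and 31 to 781 higher genes, 0 to 5 of the 10 genes, and 1 to 13 lower and 0 to 3 higher partner genes. The cause was not tested. SOGA1 was called lower in all 16 alternatives. Of 544 values of 34 single named genes under these alternatives, 132 were called genes that lost their call. In 1 a gene gained a call (CDC20, with the length and GC correction). A further 3 were uncalled genes (BUB3, KRT7 and KRT8) that changed sign with that correction, with a shift of at least their SE in the main fit. The other 408 kept their side of the threshold, among them values of MAD2L1 on both sides of 0.

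Same-numbered libraries did not deviate together (correlations over genes of -0.18, -0.03 and 0.15 for numbers 1, 2 and 3), so the numbers were not taken as pairs. With the number as a block, 336 genes were lower and 102 higher. Of the 10 genes 3 were lower (BUB1, AURKA and INCENP), and 1 partner gene was lower and 0 higher. TTK had 53 to 576 counts per library, and the part of depth in its spread was not tested.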
